A study of Mus musculus with 6 samples.

Results

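The genes described here are the mouse Wnt ligands, their Frizzled receptors and co-receptors, the secreted proteins that bind or block them, and a few nuclear factors and regulators of the pathway. They were chosen by symbol: every name in the count table that starts with Wnt, Fzd, Sfrp, Dkk or Rspo and a digit, together with Lrp5, Lrp6, Ror1, Ror2, Ryk, Wif1, Axin2, Lef1, Tcf7, Tcf7l1, Tcf7l2, Rnf43, Znrf3, Lgr4 and Lgr5. The rule found 41 of the 18197 symbols, and 39 of them held enough counts to be tested. The cells were cancer-associated fibroblasts, the matrix-making stromal cells of a tumour, isolated by fluorescence-activated sorting from mammary tumours of C57BL/6 mice that carry the polyoma middle T (PyMT) oncogene. Tumours were taken after 16 to 20 weeks. One group of 3 libraries is labelled mPGES-1 KO, lacking microsomal prostaglandin E synthase-1, the enzyme that makes the lipid mediator PGE2, and the other group of 3 libraries is labelled WT; they are called KO-labelled and WT-labelled libraries here. Both groups carry the oncogene. The sort markers, the promoter of the oncogene and whether the knockout affects all cells of the mouse are not stated in the sources used, and nothing says whether the libraries of a group are separate animals.

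Wnt proteins are lipid-modified secreted signals that act over short distances. In the canonical branch a Wnt binds a Frizzled receptor together with Lrp5 or Lrp6, a complex that otherwise destroys beta-catenin is switched off, and beta-catenin joins the TCF/LEF factors on DNA. Other Wnts act through Ror and Ryk receptors without beta-catenin, and in the mammary gland and its tumours stromal cells are a known source of both ligands and secreted inhibitors.

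Total counts ran from 23013498 to 37249186 in the KO-labelled libraries and from 37432510 to 43648450 in the WT-labelled libraries. Levels are given as CPM, the usual depth-scaled read count, after TMM scaling of the library totals. Ptges, which encodes mPGES-1, was at 186, 137 and 129 CPM in the KO-labelled libraries, against 31.9, 19.2 and 27.9 CPM in the WT-labelled libraries, a log2 fold change of 2.51 ± 0.31 (SE; adjusted p = 0.0171, called in 10 of 14 alternative settings), so the total count of the gene goes against the label. Counts per gene do not separate a deleted exon from the rest, and every direction given here rests on the labels as deposited. Fibroblast markers were present in every library: the 11 markers measured took 0.785 to 1.97% of counts in the KO-labelled libraries and 1.11 to 2.84% in the WT-labelled libraries. Of these 11, Thy1 fell (log2 fold change -3.22 ± 0.44, adjusted p = 0.0184) and 0 rose. Markers of other cells differed between the groups as well. The 14 pericyte and vascular smooth muscle markers took 0.0262 to 0.0516% of counts in the KO-labelled libraries and 0.360 to 1.02% in the WT-labelled libraries, and 10 of them fell. The 16 luminal epithelial markers measured took 3.63 to 4.97% of counts in the KO-labelled libraries and 0.767 to 1.24% in the WT-labelled libraries, and 7 of them rose. Among all genes tested, 1.2% rose and 1.56% fell. Csn3 was the highest luminal marker in every library, at 32217, 16656 and 18793 CPM in the KO-labelled libraries, against 8490, 3494 and 5070 CPM in the WT-labelled libraries. It did not pass (adjusted p = 0.0667). Lalba alone of the 16 had a negative log2 fold change (-0.84 ± 0.42, adjusted p = 0.346). Basal epithelial markers stayed at or under 0.0217% and endothelial markers at or under 0.00878% of counts in every library. The 10 leukocyte markers took 0.160 to 0.259% in the KO-labelled libraries and 0.0503 to 0.111% in the WT-labelled libraries. Among these 10, only Cd14 rose (log2 fold change 1.68 ± 0.33, adjusted p = 0.0451) and 0 fell. Cd14 was the highest of the 10 in every library. Mitochondrial transcripts took 2.71 to 4.13% in the KO-labelled libraries and 0.830 to 2.86% in the WT-labelled libraries. No defining marker of these lists was at 0 in all libraries of a group. The part of these other cells and of the mitochondrial share in the Wnt gene values below was not tested, and in sorted bulk samples fewer cells of a type and less RNA per cell cannot be told apart.

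None of the Wnt genes passed the test, although several had libraries that did not overlap between the groups. With edgeR's quasi-likelihood test, 0 of the 39 tested genes had an adjusted p under 0.05, where 2.76% of all 16543 genes tested did. At an unadjusted p under 0.05 there were 12 of the 39, of which 9 were lower and 3 higher in the KO-labelled libraries, a share of 30.8% beside 19.1% of all genes (10.5% lower and 8.56% higher). In 13 genes, or 33.3%, the libraries of the groups did not overlap (9 lower, 4 higher), and 27.9% of all genes did the same (15.7% lower, 12.2% higher). The median log2 fold change of the 39 was -0.41, that of all genes tested -0.04. DESeq2's Wald test called 10 of the 39 (25.6%), 7 lower and 3 higher, where it called 12.7% of all genes (6.63% lower, 6.02% higher). Limma-voom, run with a quality weight for each library, called 4 (10.3%), all lower, where it called 11.9% of all genes (5.91% lower, 5.97% higher). At an adjusted p under 0.1 edgeR called 2 genes, Tcf7l1 and Fzd8, beside 6.73% of all genes. Dkk3, Fzd4 and Wnt5a were called by both DESeq2 and limma-voom. DESeq2 added Fzd8, Tcf7l1, Axin2 and Sfrp2 as lower and Lgr5, Sfrp4 and Rnf43 as higher, and limma-voom added Fzd9 as lower. In GENCODE M21 on GRCm38 the genes called by both tools are Wnt5a at chr14:28504750-28527448 (plus strand), Fzd4 at chr7:89404355-89413134 (plus strand) and Dkk3 at chr7:112116017-112159057 (minus strand).

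**Figure D1:**
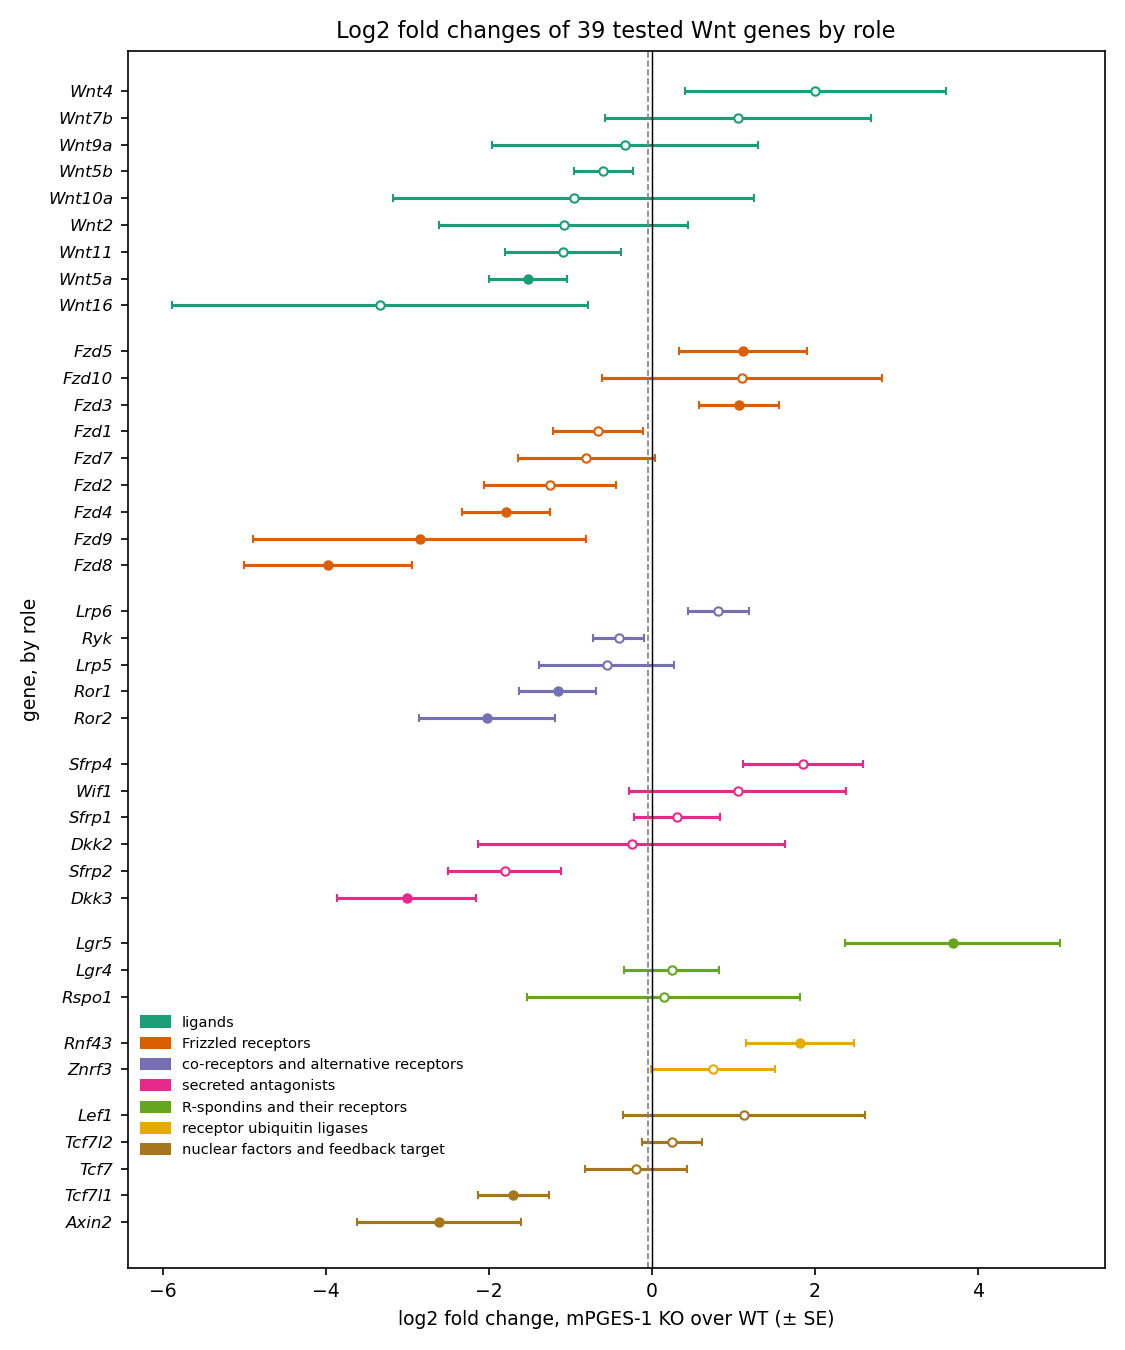
Log2 fold change of each of the 39 tested Wnt genes, mPGES-1 KO over WT (x axis), grouped by role and coloured by it (y axis); bars are the standard error of the edgeR fit and filled points are the 13 genes whose libraries did not overlap between groups. The dashed line is the median of all genes tested (-0.04), and the points run from -3.97 for Fzd8 to 3.69 for Lgr5.

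Together, Wnt5b and Wnt2 made up most of the ligand RNA in each library, but the part of Wnt2 varied widely. Compared per kilobase of exon, since longer transcripts give more reads, these 2 genes together held 58.8, 64.5 and 55.6% of the summed level of the 11 ligands in the KO-labelled libraries and 68.5, 63.5 and 68.3% in the WT-labelled libraries. The split between them was uneven. Wnt2 held 28.8, 34.3 and 14.6% in the KO-labelled libraries and 0.515, 5.19 and 57.2% in the WT-labelled libraries. Wnt11 held more than Wnt2 in mPGES-1 KO replicate 3 (19.3%), WT replicate 1 (15.0%) and WT replicate 2 (12.1%). Wnt5b, a ligand mostly studied in beta-catenin-independent signalling, was at 32.4, 30.5 and 40.8 CPM in the KO-labelled libraries, against 63.6, 61.2 and 31.7 CPM in the WT-labelled libraries. WT replicate 3 lay among the KO-labelled libraries, and the log2 fold change of -0.59 ± 0.36 (SE) did not pass (adjusted p = 0.440). Wnt2, a canonical ligand, was at 26.4, 29.5 and 12.4 CPM in the KO-labelled libraries and at 0.410, 4.63 and 139 CPM in the WT-labelled libraries. The WT libraries therefore lay on both sides of the others, with 18, 184 and 5079 counts in replicates 1, 2 and 3. Its log2 fold change was -1.08 ± 1.52 (adjusted p = 0.775) and became 3.17 (adjusted p = 0.261) without WT replicate 3.

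Wnt5a, the ligand best known for signalling through Ror receptors, was the only 1 of 9 tested ligands with separate groups (lower, beside 15.7% of all genes). It was at 11.8, 7.75 and 5.41 CPM in the KO-labelled libraries, against 22.5, 26.1 and 22.7 CPM in the WT-labelled libraries. The 3 WT libraries lay close together, and all mPGES-1 KO libraries lay below them. It averaged 8.31 ± 3.22 CPM with mPGES-1 KO and 23.8 ± 2.04 CPM with WT (SD, n = 3 each), for a log2 fold change of -1.52 ± 0.48 with an adjusted p of 0.135. Wnt11, another mostly non-canonical ligand, was at 23.8, 9.47 and 30.0 CPM in the KO-labelled libraries, against 22.0, 19.7 and 93.0 CPM in the WT-labelled libraries. The groups overlapped and WT replicate 3 was again the highest, as it was for Wnt2, Wnt9a, Wnt10a and Wnt16.

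The remaining ligands did not pass, and they varied widely between libraries of a group. Wnt4, which in the mammary gland acts downstream of progesterone in luminal cells, reached 38.9 CPM in mPGES-1 KO replicate 2, against 9.25 and 5.58 CPM in mPGES-1 KO replicates 1 and 3 and 0 to 7.47 CPM in the WT-labelled libraries. Wnt7b, a canonical ligand of epithelia, was at 12.6, 2.43 and 33.6 CPM in the KO-labelled libraries, against 10.02, 13.4 and 0 CPM in the WT-labelled libraries. Neither passed (log2 fold change 2.00 ± 1.60, adjusted p = 0.570, and 1.06 ± 1.63, adjusted p = 0.797), and in both genes the groups overlapped. An opposite-strand gene shares 8.80% of the exonic bases of Wnt11 and 6.62% of those of Wnt7b. Wnt9a had 1.17 to 10.1 CPM in the KO-labelled libraries and 0.0455 to 12.6 CPM in the WT-labelled libraries. Wnt10a had 99, 0 and 1 counts in the KO-labelled libraries and 4, 60 and 200 in the WT-labelled libraries, and Wnt16 had 0, 12 and 0 in the KO-labelled libraries, against 0, 33 and 155 in the WT-labelled libraries. Wnt1 and Wnt10b were too low to test, at up to 4 and 22 counts in the KO-labelled libraries and up to 88 and 17 in the WT-labelled libraries; they are neighbours on chromosome 15, 11706 bases apart. A count of 0 is compatible with a level of up to 0.126 CPM in the shallowest library (3 counts), and such floors cover counting error only, since these PCR reads carry no molecular identifiers.

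**Figure D2:**
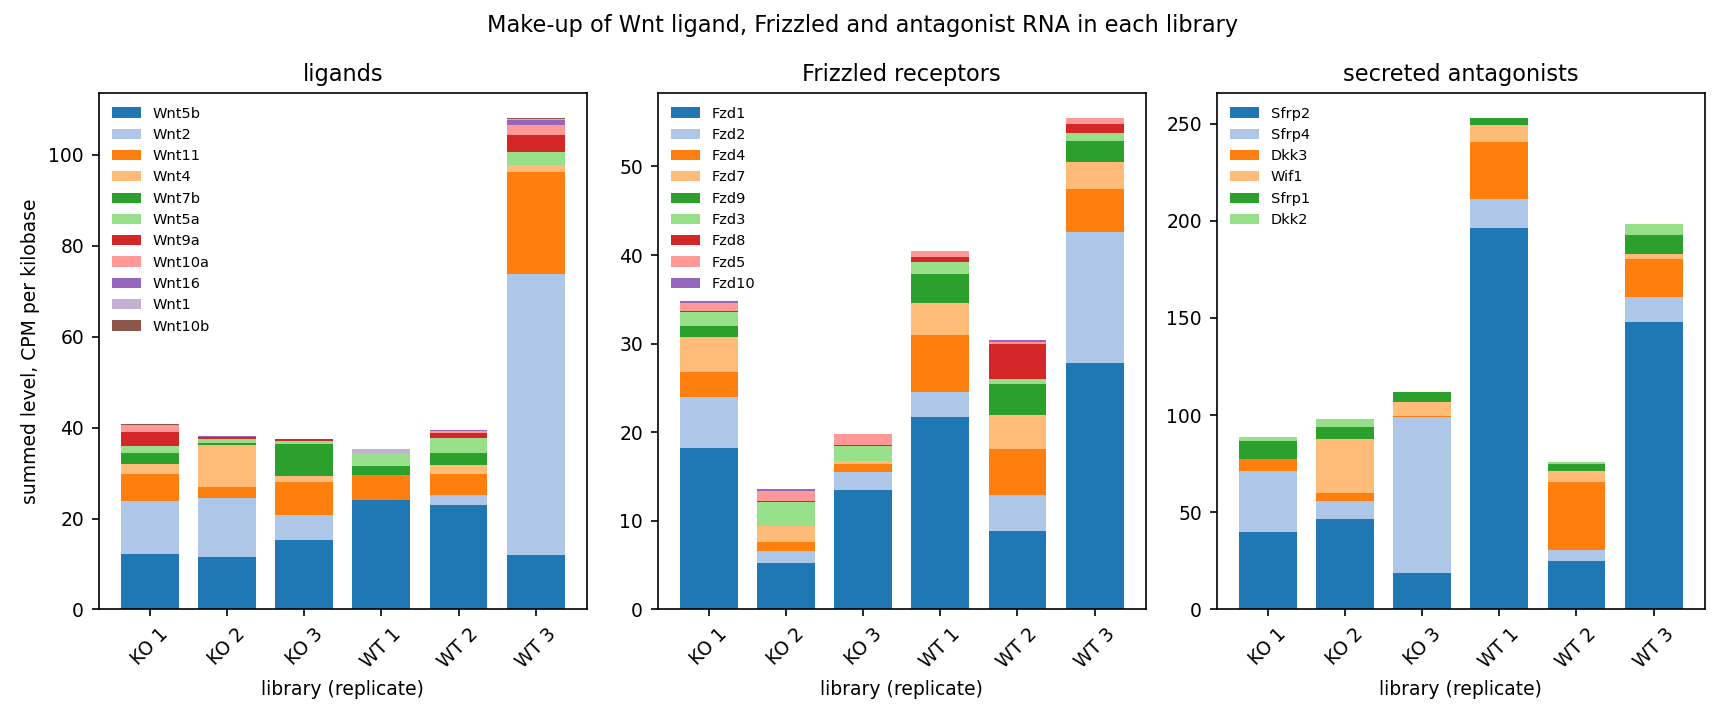
Summed level per library in CPM per kilobase of exon (y axis) of the 11 ligands, the 9 Frizzled receptors and the 6 secreted antagonists; each bar is 1 library, mPGES-1 KO replicates 1 to 3 to the left and WT replicates 1 to 3 to the right, and colours are genes. WT replicate 3 has the tallest ligand bar, at 108 CPM per kilobase against 35.3 to 40.7 in the other libraries, and the Sfrp2 and Sfrp4 blocks differ between libraries of 1 group.

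Among the Frizzleds, the receptors that bind Wnt through a cysteine-rich extracellular domain, Fzd1 held the largest share and 5 of the 9 had separate groups, 3 lower and 2 higher, beside 15.7% lower and 12.2% higher among all genes. Fzd1 held 52.3, 38.7 and 68.1% of the summed Frizzled level per kilobase in the KO-labelled libraries, and 53.5, 29.1 and 50.2% in the WT-labelled libraries. In CPM it was at 76.4, 22.1 and 56.7 in the KO-labelled libraries, against 90.9, 37.1 and 117 in the WT-labelled libraries, overlapping groups with a log2 fold change of -0.66 ± 0.55 (adjusted p = 0.590). Fzd2, second by mean level per kilobase, was at 21.3, 4.69 and 7.504 CPM in the KO-labelled libraries and 10.4, 15.0 and 54.0 CPM in the WT-labelled libraries, overlapping as well (adjusted p = 0.474).

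Fzd8, Fzd4 and Fzd9 lay lower in all KO-labelled libraries than in any WT-labelled one. Fzd8 had the widest difference of the family, at 0.658, 0.671 and 0.793 CPM in the KO-labelled libraries, against 3.48, 23.5 and 6.45 CPM in the WT-labelled libraries. The mPGES-1 KO libraries were close to each other, while the WT values spread widely with replicate 2 highest. The log2 fold change was -3.97 ± 1.03 with an adjusted p of 0.0898, and -2.75 (adjusted p = 0.450) without WT replicate 2. Fzd4, which also serves as the receptor of Norrin in blood vessels, was at 19.2, 7.04 and 5.72 CPM in the KO-labelled libraries, against 43.2, 34.5 and 32.4 CPM in the WT-labelled libraries. Each WT library was above each mPGES-1 KO library, with means of 10.7 ± 7.43 CPM for mPGES-1 KO and 36.7 ± 5.75 CPM for WT (SD, n = 3 each) and a log2 fold change of -1.78 ± 0.54 (adjusted p = 0.125). Fzd9 had 80, 0 and 0 counts in the KO-labelled libraries and 327, 324 and 200 in the WT-labelled libraries. Its log2 fold change of -2.85 ± 2.04 did not pass (adjusted p = 0.522), and mPGES-1 KO replicate 1 held all the counts of its group.

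Fzd3 and Fzd5 were on the other side. Fzd3, a receptor of the planar cell polarity branch in neurons, was at 20.0, 33.9 and 22.7 CPM in the KO-labelled libraries, against 17.97, 7.32 and 11.3 CPM in the WT-labelled libraries. The groups were separate by a narrow gap, and the log2 fold change of 1.07 ± 0.49 did not pass (adjusted p = 0.293). Fzd5, known as a receptor of the intestinal epithelium, was at 6.51, 7.88 and 8.55 CPM in the KO-labelled libraries, against 4.14, 1.96 and 4.45 CPM in the WT-labelled libraries (log2 fold change 1.12 ± 0.78, adjusted p = 0.509). An opposite-strand gene shares 17.8% of its exonic bases and the reads hold no strand, so its level is uncertain. Fzd7 ran from 1.33 to 17.6 CPM in the KO-labelled libraries and from 13.8 to 17.3 CPM in the WT-labelled libraries, and Fzd10 stayed under 1 CPM in all 6 libraries. Of the 9 Frizzled genes, 6 consist of 1 exonic block in the GENCODE M21 annotation of GRCm38 (Fzd1, Fzd2, Fzd7, Fzd8, Fzd9 and Fzd10) and 0 of the other genes described here do. Reads from genomic DNA cannot be told from transcript in a gene without introns.

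**Figure D3:**
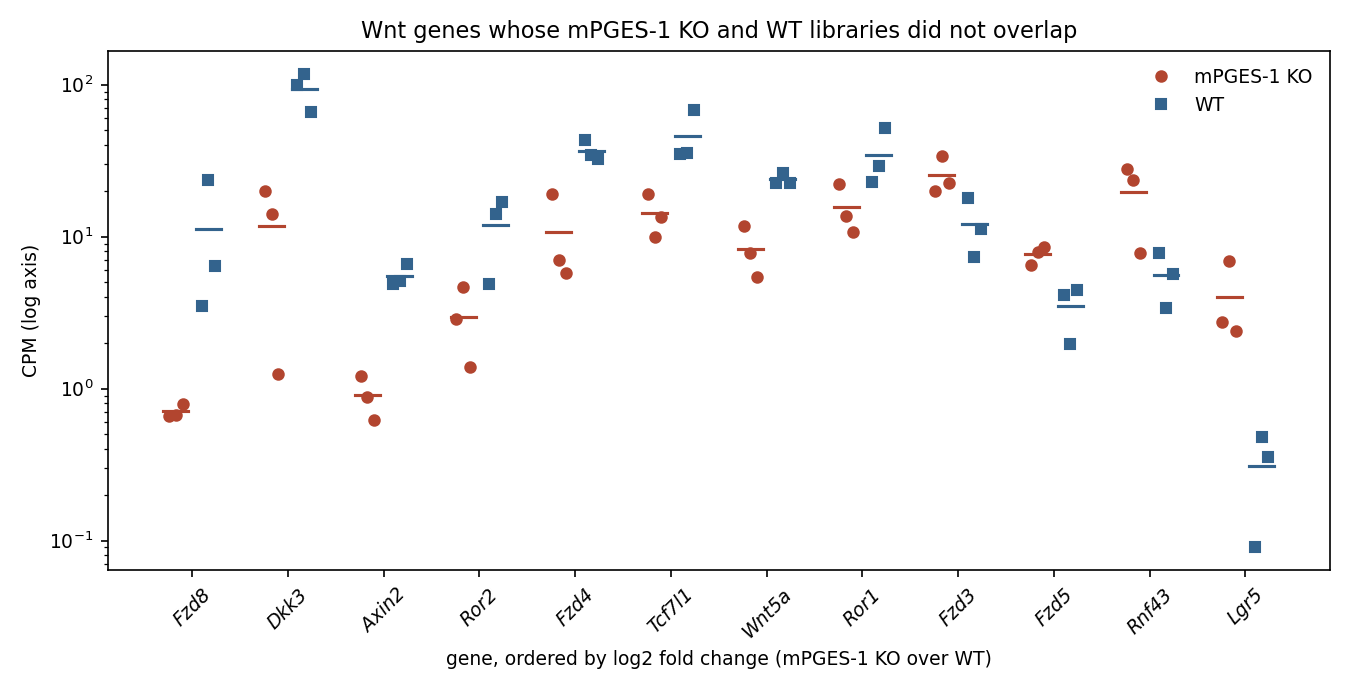
CPM on a log axis (y) for the 12 Wnt genes whose libraries did not overlap between the groups and that had a count in every library, ordered by log2 fold change (x); each point is 1 library, circles are mPGES-1 KO and squares WT, and the short lines are group means. Fzd8 and Dkk3 stand at the low end for mPGES-1 KO and Rnf43 and Lgr5 at the high end.

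Among the co-receptors and alternative receptors Ryk had the highest mean level per kilobase, while Lrp6 had the highest mean in CPM, and the Ror pair was lower in the KO-labelled libraries without passing. Ryk, a receptor with an inactive kinase domain, was at 55.6, 64.2 and 61.9 CPM in the KO-labelled libraries, against 51.9, 98.6 and 90.3 CPM in the WT-labelled libraries (adjusted p = 0.552). It held 49.6 to 66.7% of the summed level of the 5 genes in the KO-labelled libraries and 51.8 to 64.0% in the WT-labelled libraries. Ror1 was at 22.3, 13.6 and 10.7 CPM in the KO-labelled libraries, against 22.9, 29.3 and 51.8 CPM in the WT-labelled libraries. Its groups nearly touched, since mPGES-1 KO replicate 1 and WT replicate 1 differed by less than 1 CPM. The log2 fold change was -1.16 ± 0.48 (adjusted p = 0.240). Ror2, its paralog and a main receptor of Wnt5a, was at 2.85, 4.65 and 1.39 CPM in the KO-labelled libraries, against 4.85, 14.1 and 17.0 CPM in the WT-labelled libraries, where replicate 1 again lay nearest the other group (log2 fold change -2.02 ± 0.83, adjusted p = 0.242).

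Lrp6, which with Lrp5 is the obligate co-receptor of canonical signalling, went the other way in its values. It was at 79.8, 141 and 60.9 CPM in the KO-labelled libraries, against 61.1, 40.9 and 58.1 CPM in the WT-labelled libraries, with the lowest mPGES-1 KO library just under the highest WT library. The log2 fold change was 0.81 ± 0.37 (adjusted p = 0.290). Lrp5 was lower than Lrp6 per kilobase in every library and overlapped between groups, at 1.76 to 9.95 CPM in the KO-labelled libraries and 5.51 to 12.4 CPM in the WT-labelled libraries (adjusted p = 0.789).

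The secreted antagonists had the highest summed level per kilobase of the 7 roles in each library, and their make-up differed from library to library. Sfrp2 and Sfrp4 encode secreted Frizzled-related proteins, which carry a Frizzled-like domain and bind Wnts outside the cell. Sfrp2 was at 86.0, 101 and 40.8 CPM in the KO-labelled libraries, against 423, 54.1 and 318 CPM in the WT-labelled libraries. WT replicate 2 lay inside the range of the other group, and the log2 fold change of -1.81 ± 0.70 did not pass (adjusted p = 0.210). Sfrp4 was at 132, 37.1 and 335 CPM in the KO-labelled libraries, against 61.9, 23.9 and 53.3 CPM in the WT-labelled libraries. Here mPGES-1 KO replicate 2 lay inside the WT range (log2 fold change 1.86 ± 0.74, adjusted p = 0.225), and the value was 0.87 (adjusted p = 0.551) without mPGES-1 KO replicate 3. Per kilobase, the ratio of Sfrp4 to Sfrp2 was 0.790, 0.190 and 4.22 in the KO-labelled libraries and 0.0755, 0.228 and 0.0862 in the WT-labelled libraries, so that Sfrp4 exceeded Sfrp2 in mPGES-1 KO replicate 3 alone. An opposite-strand gene shares 16.1% of the exonic bases of Sfrp2.

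Dkk3 was the 1 antagonist of 6 with separate groups, lower in the KO-labelled libraries, beside 15.7% lower among all genes. It encodes a divergent member of the Dickkopf family whose effect on Wnt signalling is debated, unlike Dkk2, which binds Lrp5 and Lrp6. Dkk3 was at 19.9, 14.0 and 1.25 CPM in the KO-labelled libraries, against 99.0, 117 and 66.5 CPM in the WT-labelled libraries. Every WT library was above every mPGES-1 KO library by a wide gap, and mPGES-1 KO replicate 3 was far below the other 2 of its group. It averaged 11.7 ± 9.55 CPM with mPGES-1 KO and 94.1 ± 25.6 CPM with WT (SD, n = 3 each), for a log2 fold change of -3.00 ± 0.85 with an adjusted p of 0.108. Over 14 alternative settings it ran from -3.63 to -2.47, with adjusted p from 0.00190 to 0.283, and 2 of them, DESeq2 and limma-voom, called it.

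The other antagonists overlapped between groups. Wif1, a secreted inhibitor that binds Wnts directly, was at 0.256, 67.8 and 17.6 CPM in the KO-labelled libraries, against 21.2, 14.2 and 5.88 CPM in the WT-labelled libraries. It had 7 counts in mPGES-1 KO replicate 1 and 1618 in mPGES-1 KO replicate 2, so the spread within that group was wider than the difference between groups. Sfrp1 was at 22.97 to 40.2 CPM in the KO-labelled libraries and 14.0 to 43.7 CPM in the WT-labelled libraries (adjusted p = 0.823). Dkk2 ran from 0.283 to 14.1 CPM in the KO-labelled libraries and from 0 to 20.3 CPM in the WT-labelled libraries (adjusted p = 0.965).

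R-spondins amplify Wnt signals: bound to Lgr4 or Lgr5, they remove the ubiquitin ligases Rnf43 and Znrf3, which otherwise clear Frizzleds from the cell surface. Separate groups were found for Lgr5, 1 of 3 R-spondin and receptor genes, and for Rnf43, 1 of 2 ligases. Both were higher in the KO-labelled libraries, as 12.2% of all genes were, and none of these genes passed. Rspo1, the ligand, was at 7.02, 2.64 and 5.24 CPM in the KO-labelled libraries, against 0, 3.40 and 10.1 CPM in the WT-labelled libraries (adjusted p = 0.978). Lgr4 was at 11.2, 13.0 and 12.3 CPM in the KO-labelled libraries, against 15.3, 9.96 and 5.49 CPM in the WT-labelled libraries (adjusted p = 0.879). Both genes overlapped between the groups. Lgr5, a marker of epithelial stem cells and a target of the pathway, was low, with 75, 165 and 85 counts in the KO-labelled libraries and 4, 19 and 13 in the WT-labelled libraries. In CPM this was 4.02 ± 2.51 for mPGES-1 KO and 0.309 ± 0.198 for WT (SD, n = 3 each), with a log2 fold change of 3.69 ± 1.32 (adjusted p = 0.179). It was described in full after its values were seen.

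Rnf43 was at 28.1, 23.5 and 7.82 CPM in the KO-labelled libraries, against 7.81, 3.37 and 5.66 CPM in the WT-labelled libraries. mPGES-1 KO replicate 3 and WT replicate 1 nearly touched, and the log2 fold change was 1.82 ± 0.67 (adjusted p = 0.190). Znrf3, its paralog, was at 8.05, 13.0 and 4.11 CPM in the KO-labelled libraries, against 3.87, 5.53 and 5.55 CPM in the WT-labelled libraries, and overlapped (adjusted p = 0.665).

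At the nuclear end, Tcf7l1 had the smallest adjusted p of the 39 genes, and the feedback gene Axin2 was lower in each KO-labelled library. Tcf7l1 (TCF3), the family member best known as a repressor of target genes, was at 19.2, 10.02 and 13.5 CPM in the KO-labelled libraries, against 34.9, 35.5 and 68.2 CPM in the WT-labelled libraries. All WT libraries lay above all mPGES-1 KO libraries. It averaged 14.2 ± 4.62 CPM with mPGES-1 KO and 46.2 ± 19.1 CPM with WT (SD, n = 3 each), for a log2 fold change of -1.70 ± 0.44 with an adjusted p of 0.0883. Tcf7l2 (TCF4), the most abundant of the factors in CPM, was at 88.8, 58.4 and 77.3 CPM in the KO-labelled libraries, against 42.9, 51.9 and 94.2 CPM in the WT-labelled libraries, and overlapped (adjusted p = 0.786). Tcf7l2 held 56.4, 38.2 and 55.3% of the summed level per kilobase of this role in the KO-labelled libraries and 24.7, 27.0 and 32.1% in the WT-labelled libraries. Tcf7l1 held 27.2, 14.7 and 21.6% in the KO-labelled libraries, against 44.8, 41.3 and 51.9% in the WT-labelled libraries. The order of these factors in the WT-labelled libraries depended on the length used. Per kilobase of the longest transcript, Tcf7l2 held 38.95, 41.7 and 46.6% there and Tcf7l1 38.7, 34.8 and 41.2%. In the KO-labelled libraries Tcf7l1 then held 18.6, 11.6 and 14.8%, again less than Tcf7l2.

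Axin2, a scaffold of the destruction complex and the most widely used readout of canonical signalling, was at 1.21, 0.880 and 0.623 CPM in the KO-labelled libraries, against 4.87, 5.08 and 6.59 CPM in the WT-labelled libraries. The groups were separate and each was tight, with 33, 21 and 22 counts in the KO-labelled libraries and 214, 202 and 240 in the WT-labelled libraries. The log2 fold change of -2.61 ± 1.00 did not pass (adjusted p = 0.208), stayed between -2.87 and -2.39 over 14 alternative settings, and was called in 1 of them, by DESeq2 (the adjusted p ran from 0.0220 to 0.455). It was described in full after its values were seen, since its mean was under the 5 CPM set for that. Tcf7 ran from 5.96 to 20.1 CPM in the KO-labelled libraries and from 9.75 to 15.3 CPM in the WT-labelled libraries. Lef1, a factor of epithelial buds and lymphocytes, ran from 3.39 to 5.38 CPM in the KO-labelled libraries and from 0.0228 to 4.04 CPM in the WT-labelled libraries, where replicate 1 held 1 count. An opposite-strand gene shares 13.8% of the exonic bases of Lef1.

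Promoter windows of RefSeq (GRCm38.p6), running from 250 bases before to 50 bases after each start site, were matched to 28 of the 41 genes in 37 windows. They were searched on both strands for the core bound by TCF/LEF factors, CTTTG followed by A or T, for the full cAMP response element TGACGTCA and for its half-site TGACG, which the full element contains. A TCF/LEF core was found in 10 of the 37 windows (27.0%), against 31.2% of all 32851 windows of the same length. The half-site was found in 5 windows (13.5%), against 20.8% of all windows, and the full element in 0, against 1.79%. Of the 13 genes with separate groups, 8 had a window, 6 of them lower and 2 higher in the KO-labelled libraries. A core was found for 3 of the 8, Tcf7l1, Ror1 and Ror2, and for none of Fzd4, Fzd9, Axin2, Fzd5 and Rnf43. The share of all windows with a core was 31.2%, as above. That share counts single windows, while a gene with several windows, here Rnf43, was counted once if any of them held a core. The windows with a core are shown for the place of the matches, which are in capitals: chr6:72788996-72789295 on the minus strand for Tcf7l1, with the core starting 28 bases before the start site, chr4:100095541-100095840 on the plus strand for Ror1, with a half-site at 217 and a core at 205 bases before it, and chr13:53286075-53286374 on the minus strand for Ror2, with a core at 200 bases before it.
Tcf7l1: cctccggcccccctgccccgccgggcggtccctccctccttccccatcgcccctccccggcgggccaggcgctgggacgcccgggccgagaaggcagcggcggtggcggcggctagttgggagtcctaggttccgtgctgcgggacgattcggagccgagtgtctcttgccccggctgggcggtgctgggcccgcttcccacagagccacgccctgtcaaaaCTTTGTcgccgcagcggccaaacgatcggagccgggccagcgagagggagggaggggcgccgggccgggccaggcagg
Ror1: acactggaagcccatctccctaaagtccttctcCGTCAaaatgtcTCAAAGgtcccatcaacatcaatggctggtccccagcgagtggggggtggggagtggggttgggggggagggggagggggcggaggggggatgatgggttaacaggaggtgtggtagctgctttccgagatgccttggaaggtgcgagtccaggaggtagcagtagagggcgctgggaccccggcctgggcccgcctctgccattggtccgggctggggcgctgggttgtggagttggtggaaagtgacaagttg
Ror2: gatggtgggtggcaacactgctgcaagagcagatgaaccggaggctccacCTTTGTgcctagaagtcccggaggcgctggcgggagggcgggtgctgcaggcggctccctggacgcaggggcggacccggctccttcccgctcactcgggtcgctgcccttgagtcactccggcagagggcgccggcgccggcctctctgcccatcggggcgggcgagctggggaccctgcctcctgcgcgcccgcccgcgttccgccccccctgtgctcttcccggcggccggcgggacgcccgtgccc

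Other genes of the pathway were taken from 6 lists of secretion, extracellular, cytoplasmic, nuclear, polarity and target genes, together 113 tested genes. Sox9, a transcription factor of progenitor cells and a common beta-catenin target, rose, and Tle1, Nfatc4 and Jag1 fell. That is 1 of 113 higher, beside 1.2% of all genes, and 3 lower, beside 1.56% of all genes. The median log2 fold change of the 113 was -0.13. Sox9 was at 988, 996 and 905 CPM in the KO-labelled libraries, against 148, 95.3 and 191 CPM in the WT-labelled libraries, a log2 fold change of 2.73 ± 0.33 (adjusted p = 0.0171). Sox9 is also a factor of the luminal lineage, whose markers were higher in the same libraries, and that share in its difference was not tested. Jag1, a Notch ligand counted among the targets, fell to 12.4, 7.54 and 10.6 CPM in the KO-labelled libraries, against 34.9, 53.4 and 43.5 CPM in the WT-labelled libraries (log2 fold change -2.11 ± 0.38, adjusted p = 0.0349). In both genes the groups were far apart relative to the spread within each. Leaving out single libraries, the Sox9 call was lost without mPGES-1 KO replicate 2, mPGES-1 KO replicate 3 or WT replicate 2, and the Jag1 and Nfatc4 calls were lost without any 1 library other than WT replicate 1.

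Tle1, a Groucho co-repressor that TCF factors bind in the absence of beta-catenin, fell to 20.6, 22.2 and 17.0 CPM in the KO-labelled libraries, against 64.4, 48.6 and 55.4 CPM in the WT-labelled libraries (log2 fold change -1.49 ± 0.31, adjusted p = 0.0484). The members of its list did not share a direction: 6 of 20 were higher with separate groups, beside 12.2% of all genes, and 2 were lower, beside 15.7%. Ctnnb1, beta-catenin itself, was at 182, 255 and 253 CPM in the KO-labelled libraries, against 140.4, 163 and 68.7 CPM in the WT-labelled libraries (adjusted p = 0.231). Genes on the same and on the opposite strand share 15.1% of the exonic bases of Ctnnb1. Nfatc4, a calcium-regulated factor of the Wnt calcium branch, fell to 2.60, 3.86 and 2.83 CPM in the KO-labelled libraries, against 15.8, 74.0 and 42.6 CPM in the WT-labelled libraries (log2 fold change -3.83 ± 0.64, adjusted p = 0.0296). The pericyte markers were also lower in these libraries, and their part in the Nfatc4 and Tle1 values was not tested. The Tle1 call is near the threshold, and 10 of 14 alternative settings did not make it.

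In the list of ligand secretion, 0 of 5 passed and all 5 log2 fold changes were negative (median -0.67). Among all 16543 genes tested, 8543 were negative. Of the 5, 1 was lower with separate groups, beside 15.7% of all genes. Wls, the carrier that brings Wnts to the cell surface, was at 252, 256 and 187 CPM in the KO-labelled libraries, against 479, 312 and 234 CPM in the WT-labelled libraries, overlapping groups (adjusted p = 0.412), and Gpc3, a glypican that binds Wnts, ran from 25.7 to 105 CPM in the KO-labelled libraries and from 15.3 to 126 CPM in the WT-labelled libraries. Of 14 extracellular and surface modulators 0 passed (median -0.62), and Tspan12, a partner of Fzd4 and among the most abundant, had an adjusted p of 0.756. Of the 14, 3 were lower with separate groups, beside 15.7% of all genes, and 1 was higher, beside 12.2%. The lower ones were Ptk7 (log2 fold change -2.61 ± 0.55, adjusted p = 0.0536), Adgra2 (-3.76 ± 0.86, adjusted p = 0.0659) and Kremen1 (-1.56 ± 0.42, adjusted p = 0.0981). The higher one was Lrp4 (1.43 ± 1.10, adjusted p = 0.553). In the destruction complex and Dishevelled list 0 of 26 passed (median -0.41). Csnk1a1, the kinase that primes beta-catenin for destruction, was at 617, 624 and 558 CPM in the KO-labelled libraries, against 369, 284 and 228 CPM in the WT-labelled libraries, with separate groups and an adjusted p of 0.0898. Nkd2, a Dishevelled-binding inhibitor, was at 56.0, 17.2 and 66.4 CPM in the KO-labelled libraries. In the WT-labelled libraries it was at 158, 215 and 115 CPM (adjusted p = 0.107). Nkd1, also in the target list, had separate groups and the smallest adjusted p of the 26 (0.0667). It was at 14.3, 5.53 and 7.33 CPM in the KO-labelled libraries, against 36.5, 31.8 and 47.0 CPM in the WT-labelled libraries. Of the 26, 4 were higher with separate groups, beside 12.2% of all genes, and 6 lower, beside 15.7%. The nuclear list had a median of 0.25, with Aes and Ctbp1 as its most abundant genes (adjusted p = 0.997 and 0.541). The polarity and calcium list had a median of 0.04, with the small GTPases Rac1 and Rhoa most abundant (adjusted p = 0.743 and 0.745), and the target list a median of 0.20, with Id2 next to Sox9 in abundance (adjusted p = 0.730).

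**Figure D4:**
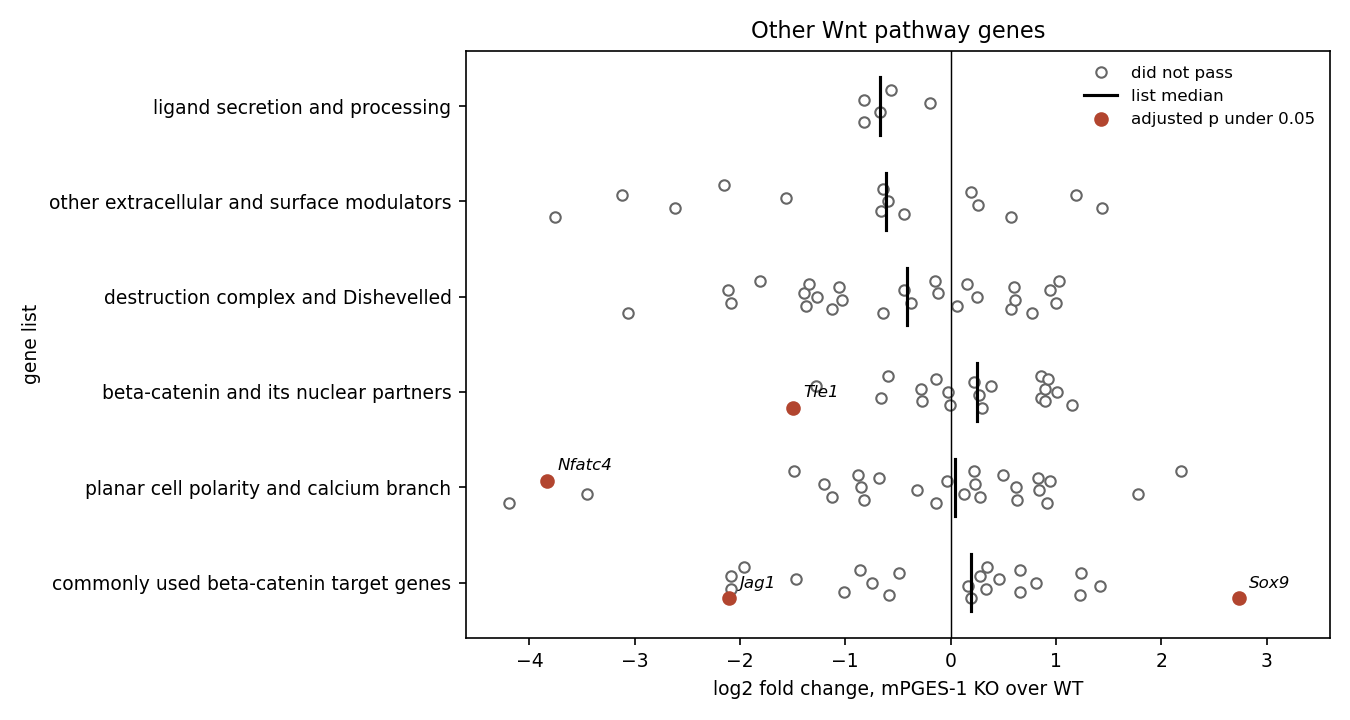
Log2 fold changes, mPGES-1 KO over WT (x axis), of the tested genes in 6 lists of other Wnt pathway genes (y axis); each circle is a gene, filled where its adjusted p was under 0.05, and the black bars are list medians. Sox9 lies to the right of 0, and Tle1, Nfatc4 and Jag1 lie to the left.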

How the data were processed

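RNA-seq was run on 6 libraries of sorted cancer-associated fibroblasts, 3 labelled mPGES-1 KO and 3 labelled WT. Per the labels' protocols, cDNA was made with a low-input template-switching kit, amplified by 16 PCR cycles, sheared and sequenced as single reads of 75 cycles; kits of this kind mark neither strand nor single molecules. The deposited values are whole read counts per gene symbol, not normalized. FastQC 0.11.5, STAR and the build mm10 are listed in the submitters' processing notes, and no source used here names the counting program or its annotation.

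Counts were fitted in R 4.3.3 with edgeR 4.0.16 (filterByExpr by genotype, TMM, robust estimateDisp, glmQLFit and glmQLFTest, no covariate). The test was two-sided, with Benjamini-Hochberg adjustment over 16543 genes, and calls were made at an adjusted p under 0.05. Standard errors are the absolute log2 fold change over the square root of F. The p-values measure only how these libraries vary, and that may be technical variation. The biological coefficient of variation was 0.818, so wide differences alone could be called. CPM are counts over TMM-scaled totals, and levels per kilobase use exonic lengths of GENCODE M21 on GRCm38, in which all 41 genes were found. Promoter sequences are from RefSeq on GRCm38.p6. The fits were tested on simulated data.

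Named in full were called genes, genes with separate groups at a mean of at least 5 CPM, the 2 most abundant per kilobase of each role, and in the other lists up to 5 called and the 2 most abundant in CPM; 1 gene under this rule is not reported here. Axin2, Lgr5, Fzd9, Ctnnb1 and the remaining genes with values were added after their values were seen. The genes and lists were chosen with earlier results of these data known. Alternatives were DESeq2 1.42.0, limma-voom with a quality weight for each library (limma 3.58.1), other scalings and other filters. Further ones left out each library, used a block for replicate number or, added after seeing the data, thinned libraries to 23013498 counts. Shares within a role were also taken per kilobase of the longest transcript.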

Additional observations from a re-analysis of the deposited data

How the results depend on the processing

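Of 39 tested Wnt genes, 29 kept the sign of their log2 fold change in every alternative fit that gave them a value (14 fits, but 13 for Wnt16 and 12 for Fzd10), 10 reversed in some and 11 were called in some. The 11 were called only by DESeq2 or limma-voom, which called 12.7% and 11.9% of all genes. The share of all genes called in some alternative was not counted. Among Wnt genes, DESeq2 called 3 higher and 7 lower, limma-voom 4 lower, and an adjusted p under 0.1 gave 2 lower; the fits that left out 1 library called between 0 and 0. Of the other pathway genes (1 higher, 3 lower as reported), DESeq2 called 6 higher and 12 lower, limma-voom 8 and 10, and an adjusted p under 0.1 gave 3 and 8; leaving out 1 library gave 0 to 1 higher and 0 to 5 lower. Of all genes (198 higher, 258 lower), DESeq2 called 996 higher and 1097 lower, limma-voom 988 and 977, and an adjusted p under 0.1 gave 480 and 633; leaving out 1 library gave 0 to 327 higher and 0 to 241 lower.

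With the replicate number as a block, 0 genes were called among all genes, 0 among the other pathway genes and 0 among the Wnt genes. Deviations of same-numbered libraries correlated at -0.0634, 0.0278 and -0.0166, and those of differently numbered libraries at -0.0517 to 0.0631. These correlations are over all genes and cannot show a pairing that affects only some of them. The labels do not say what a number marks. The block reversed Wnt2 to 2.28, Dkk2 to 1.52 and Gpc3 to 0.11.

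Limma-voom reversed Wnt2 to 1.17, Wif1 to -0.030 and Gpc3 to 0.39. Aes, at about 0, turned to 0.045 with DESeq2 size factors, 0.037 without a low-count filter, 0.036 with a filter of 1 CPM, 0.045 with DESeq2 and 0.015 with limma-voom, and to 0.0026 after thinning, an alternative chosen after seeing the data. Leaving out 1 library, log2 fold changes that reversed ran from -6.95 to 0.60 for Wnt10a, -1.43 to 0.016 for Wnt11, -1.60 to 3.17 for Wnt2, -0.049 to 1.74 for Wnt7b, -2.07 to 1.34 for Wnt9a, -1.20 to 1.56 for Dkk2, -0.61 to 1.63 for Wif1, -0.059 to 0.67 for Lgr4, -0.40 to 1.54 for Rspo1, -0.89 to 0.11 for Tcf7, -0.10 to 0.15 for Aes, -1.10 to 0.82 for Gpc3, -0.061 to 0.51 for Id2 and -0.90 to 0.11 for Tspan12. The causes were not tested. Wnt1 and Wnt10b had too few counts to be tested.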
